A study of Mus musculus with 11 samples.

Results

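Cells that meet nucleic acid in the cytosol read it with a small set of proteins, and the transcripts of 8 of them were followed here in embryonic mouse hearts that lacked phosphodiesterase 2A. The 8 genes were the RNA helicases *Ddx58* (RIG-I), *Ifih1* (MDA5) and *Dhx58* (LGP2), the Z-form nucleic acid sensor *Zbp1*, the double-stranded RNA-dependent kinase *Eif2ak2* (PKR), the adaptors *Mavs* and *Tmem173* (STING) and the kinase *Tbk1*. They were taken by name, out of 55487 gene identifiers, with earlier results of these data known. All 8 had enough reads to be tested.

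Whole hearts were taken at E14.5 from 5 *Pde2A*-/- and 6 *Pde2A*+/+ embryos, and RNA was sequenced with 1 library for each heart. The embryos carried the germline B6; 129P2-Pde2A<tm1Dgen> allele in 2 copies or in none, came from matings of heterozygous mice and were of both sexes, with no treatment stated for them. The gene was disrupted in the whole embryo and not in the heart alone. Sense counts numbered between 35865537 and 42835382 for each heart, and did not differ detectably between the genotypes (p = 0.870, exact permutation test, two-sided). *Pde2a* itself had between 0 and 2 counts in each heart of both genotypes, which leaves the labelled genotypes without a check from the targeted gene. Why wild-type hearts had so few was not examined, and these counts do not show that its RNA was absent. Sums of 12 cardiomyocyte markers, from 36513 to 50031 CPM (counts scaled to a common library size) over all hearts, matched the labelled tissue. Sums of 12 lymphocyte and NK cell markers stood at 84.4 CPM in *Pde2A*+/+ replicate 7 and at no more than 1.28 CPM in each of the other 10 hearts. Results of the members that rest on that heart are therefore also given without it.

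RIG-I recognizes the ends of viral RNA and MDA5 long double-stranded RNA. Both then engage MAVS on the outer mitochondrial membrane, and LGP2 modulates that step without signalling by itself. STING, on the endoplasmic reticulum, receives the cyclic dinucleotide made by the DNA sensor cGAS. MAVS and STING both recruit TBK1, which phosphorylates the transcription factor IRF3 and so starts the production of type I interferon. ZBP1 leads to necroptosis through RIPK3, and PKR halts translation by phosphorylating eIF2alpha. *Ddx58*, *Ifih1*, *Dhx58*, *Zbp1* and *Eif2ak2* are themselves known as interferon-stimulated genes, and in the heart MDA5 is best known for the defence against picornaviruses.

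The promoters of *Ddx58*, *Ifih1*, *Eif2ak2* and *Tbk1* are shown for the core of the interferon-stimulated response element. RefSeq (GRCm38.p6) gave the stretch from 250 bases before to 50 bases after the transcription start for 5 of the 8 members. The entries for *Dhx58*, *Zbp1* and *Tmem173* were not held, so the members with the largest folds, *Zbp1* and *Dhx58*, could not be read. That of *Mavs* was read but is not printed. Capitals mark that core, which is 2 copies of GAAA separated by any 2 bases, and a form of it with any 1 base between the copies, on either strand. The regions are chr4:40239776-40240075 on the minus strand for *Ddx58*, chr2:62646206-62646505 on the minus strand for *Ifih1*, chr17:78882523-78882822 on the minus strand for *Eif2ak2* and chr10:121586745-121587044 on the minus strand for *Tbk1*, each written 5′ to 3′ along the gene.
Ddx58: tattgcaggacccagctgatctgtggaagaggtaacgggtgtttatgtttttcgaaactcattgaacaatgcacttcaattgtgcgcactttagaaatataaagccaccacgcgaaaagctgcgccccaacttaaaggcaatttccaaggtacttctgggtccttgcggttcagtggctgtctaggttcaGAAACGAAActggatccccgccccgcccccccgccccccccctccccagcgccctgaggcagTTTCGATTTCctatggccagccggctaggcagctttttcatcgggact
Ifih1: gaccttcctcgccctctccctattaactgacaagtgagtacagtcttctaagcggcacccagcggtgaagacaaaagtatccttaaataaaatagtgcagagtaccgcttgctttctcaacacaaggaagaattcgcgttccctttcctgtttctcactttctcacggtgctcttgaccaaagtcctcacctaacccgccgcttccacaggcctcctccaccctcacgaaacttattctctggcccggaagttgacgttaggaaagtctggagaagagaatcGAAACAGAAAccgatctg
Eif2ak2: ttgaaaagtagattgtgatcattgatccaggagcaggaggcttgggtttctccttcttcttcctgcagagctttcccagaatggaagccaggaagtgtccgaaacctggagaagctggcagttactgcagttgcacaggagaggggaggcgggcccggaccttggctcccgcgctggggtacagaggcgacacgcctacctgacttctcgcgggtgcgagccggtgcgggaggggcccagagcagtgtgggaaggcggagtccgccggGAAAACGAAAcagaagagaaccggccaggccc
Tbk1: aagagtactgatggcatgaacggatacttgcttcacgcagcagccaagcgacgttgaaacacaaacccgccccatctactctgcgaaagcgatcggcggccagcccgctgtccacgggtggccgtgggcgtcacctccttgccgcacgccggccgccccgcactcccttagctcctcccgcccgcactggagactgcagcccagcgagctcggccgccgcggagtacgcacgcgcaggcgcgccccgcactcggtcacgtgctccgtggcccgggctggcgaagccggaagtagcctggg

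The *Ddx58* promoter held the core on the strand opposite to the gene, first base at +3, and the 1-base form at -60, with the start counted as +1. The *Ifih1* promoter held the core at +33 and the *Eif2ak2* promoter at +19. The 2 forms did not overlap in any of them. No match to either form lay in the windows of *Tbk1* or *Mavs*. Of 32851 mouse promoters of the same length, 3.44% held the core and 3.17% the 1-base form. The matches are descriptions of sequence, and no binding was measured in these hearts.

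Transcripts of all 3 RIG-I-like helicases were higher in *Pde2A*-/- hearts, and no knockout heart overlapped the wild types. *Ddx58* (ENSMUSG00000040296, chromosome 4, 40203773 to 40239828, minus strand) lay at 27.9, 39.7, 39.0, 35.3 and 43.2 CPM in *Pde2A*-/- replicates A, B, 14, D and 15. The lowest, median and highest of the *Pde2A*+/+ hearts were 12.5, 15.5 and 17.3 CPM. Replicate A, the lowest of the knockout hearts, still stood well above the highest wild type. *Ddx58* rose by 1.29 on the log2 scale (SE 0.11, 95% interval 1.04 to 1.53), which is 2.44-fold, with an adjusted p of 1.48e-05. Adjusted p-values here and in what follows come from the quasi-likelihood test of edgeR, adjusted after Benjamini and Hochberg over 24177 genes. The counts behind these values, from 1068 to 1684 in knockout and from 456 to 710 in wild-type hearts, give a counting error far smaller than the spread between hearts.

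*Ifih1* (ENSMUSG00000026896, chromosome 2, 62595798 to 62646255, minus strand) showed a larger difference from a lower base. Knockout hearts A, B, 14, D and 15 had 8.06, 17.1, 15.1, 11.2 and 17.2 CPM, against 2.82, 3.30 and 5.11 CPM as the lowest, median and highest wild type. The highest wild type was replicate 7, and the genotypes did not overlap with or without it. The difference was 1.93 on the log2 scale (SE 0.20, 95% interval 1.49 to 2.37), or 3.81-fold, with an adjusted p of 5.30e-05.

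*Dhx58* (ENSMUSG00000017830, chromosome 11, 100694884 to 100704271, minus strand), the regulatory helicase that lacks the signalling domains of the other two, differed by 2.20 on the log2 scale (SE 0.22, 95% interval 1.73 to 2.67). Its values were 2.84, 5.81, 4.70, 3.75 and 5.51 CPM in knockout hearts A, B, 14, D and 15, and 0.603, 1.01 and 1.22 CPM as the lowest, median and highest wild type. Every knockout heart was thus above every wild type, by 4.60-fold on average (adjusted p = 3.12e-05). On the opposite strand *Dhx58os* overlaps 4.31% of its exon bases, and the counts used are of the sense strand.

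*Zbp1* (ENSMUSG00000027514, chromosome 2, 173206612 to 173218923, minus strand) was the scarcest of the 8 transcripts and had the largest fold. It was read in 37 to 90 counts in knockout and 4 to 18 counts in wild-type hearts. These correspond to 0.966, 2.12, 1.67, 1.05 and 1.90 CPM in replicates A, B, 14, D and 15, and to 0.105, 0.311 and 0.469 CPM as the lowest, median and highest wild type. Replicate 7 was again the highest wild type, and all knockout hearts were above it. The difference was 2.39 on the log2 scale (SE 0.31, 95% interval 1.71 to 3.06), 5.23-fold, with an adjusted p of 3.47e-04. The interval, from 3.27-fold to 8.37-fold, is the widest of the 8.

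*Eif2ak2* (ENSMUSG00000024079, chromosome 17, 78852564 to 78882573, minus strand) changed less than the other sensors but without overlap. Its values were 42.5, 59.9, 49.9, 39.6 and 47.9 CPM in knockout hearts A, B, 14, D and 15, and 27.9, 30.1 and 33.0 CPM as the lowest, median and highest wild type. Wild-type hearts lay close together, with a coefficient of variation of 6.07%, while knockout hearts spread by 16.3%. The difference was 0.66 on the log2 scale (SE 0.09, 95% interval 0.47 to 0.86), 1.59-fold, with an adjusted p of 4.87e-04. Its exons share 4.32% of their bases with opposite-strand genes.

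**Figure D1:**
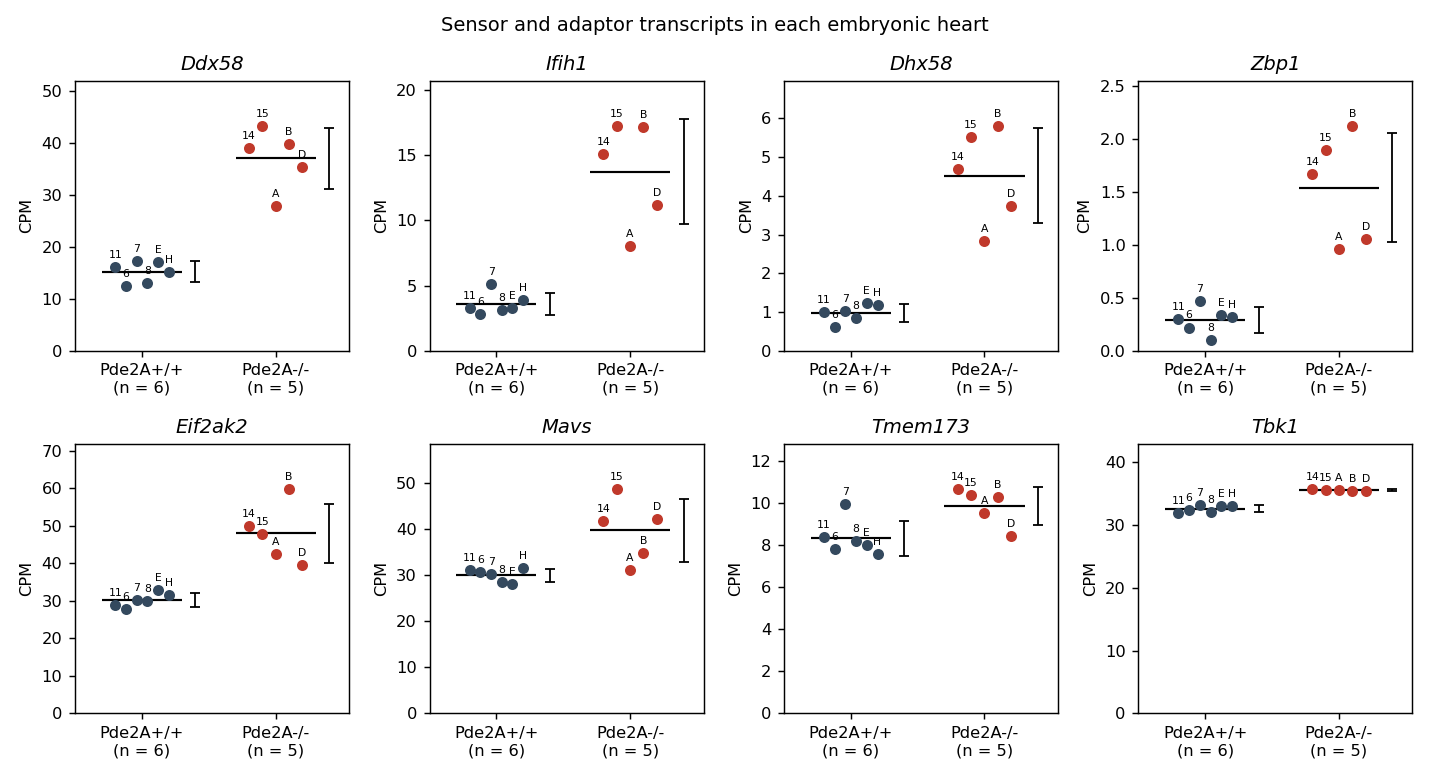
CPM of each member by genotype, 1 point for each heart with its replicate name, line for the mean and bar for the SD of 6 wild-type or 5 knockout hearts, each axis from 0. *Ddx58*, *Ifih1*, *Dhx58*, *Zbp1*, *Eif2ak2* and *Tbk1* do not overlap between the genotypes, whereas *Mavs* overlaps through knockout replicate A and *Tmem173* through knockout replicates A and D and wild-type replicate 7.

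The adaptors moved less. *Mavs* (ENSMUSG00000037523, chromosome 2, 131234063 to 131248025, plus strand) lay at 31.1, 34.9, 41.7, 42.3 and 48.8 CPM in knockout hearts A, B, 14, D and 15. The lowest, median and highest wild types were 28.0, 30.4 and 31.6 CPM. Replicate A fell within the wild-type range and the other 4 knockout hearts lay above it. The difference was 0.41 on the log2 scale (SE 0.10, 95% interval 0.20 to 0.61), 1.32-fold, with an adjusted p of 0.0155. Without replicate A it was 0.49 and without replicate 15 it was 0.33, and each of the 11 fits that left out 1 heart passed the test.

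*Tmem173* (ENSMUSG00000024349, chromosome 18, 35733679 to 35740554, minus strand) was the member that did not pass. Knockout hearts A, B, 14, D and 15 had 9.53, 10.3, 10.7, 8.44 and 10.4 CPM, and the lowest, median and highest wild types 7.58, 8.10 and 9.93 CPM. The wild-type value of 9.93 CPM belonged to replicate 7, the heart with lymphocyte transcripts, and 3 of the 5 knockout hearts were above it. The difference was 0.25 on the log2 scale (SE 0.09, 95% interval 0.05 to 0.44), 1.19-fold, with an adjusted p of 0.0803. Without replicate 7 the difference was 0.30 and the adjusted p 0.0337. The part of the lymphocyte transcripts in this result was not tested.

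*Tbk1* (ENSMUSG00000020115, chromosome 10, 121546455 to 121586787, minus strand), on which both adaptors converge, had the smallest difference and the tightest values. Knockout hearts A, B, 14, D and 15 had 35.5, 35.4, 35.8, 35.4 and 35.6 CPM, and the lowest, median and highest wild types 31.9, 32.7 and 33.1 CPM. The genotypes did not overlap, although they lay only 1.09-fold apart. The difference of 0.13 on the log2 scale (SE 0.04, 95% interval 0.05 to 0.20) had an adjusted p of 0.0382. That p depended on single hearts, since only 2 of the 11 fits that left out 1 heart passed, with adjusted p-values from 0.0344 to 0.0872. Knockout hearts varied by 0.462%, less than the 2.70% that counting alone would give at this depth, so their closeness is not a measure of precision.

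A total of 7 of the 8 members therefore passed the test, all higher, where 14.6% of the 24177 genes tested passed, 8.93% as higher and 5.67% as lower. The 4 members *Ddx58*, *Ifih1*, *Dhx58* and *Zbp1* were also at least 2-fold higher, as were 2.21% of all genes, while 0.372% were at least 2-fold lower. In 6 members every knockout heart exceeded every wild type, as in 5.38% of all genes. The genotypes did not overlap in either direction in 8.49% of all genes. The median of the 8 differences was 0.98 on the log2 scale, against -0.02 over all genes. Whether a whole-heart difference reflects more cells that hold a transcript or more RNA in each cell cannot be told apart in these libraries.

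**Figure D2:**
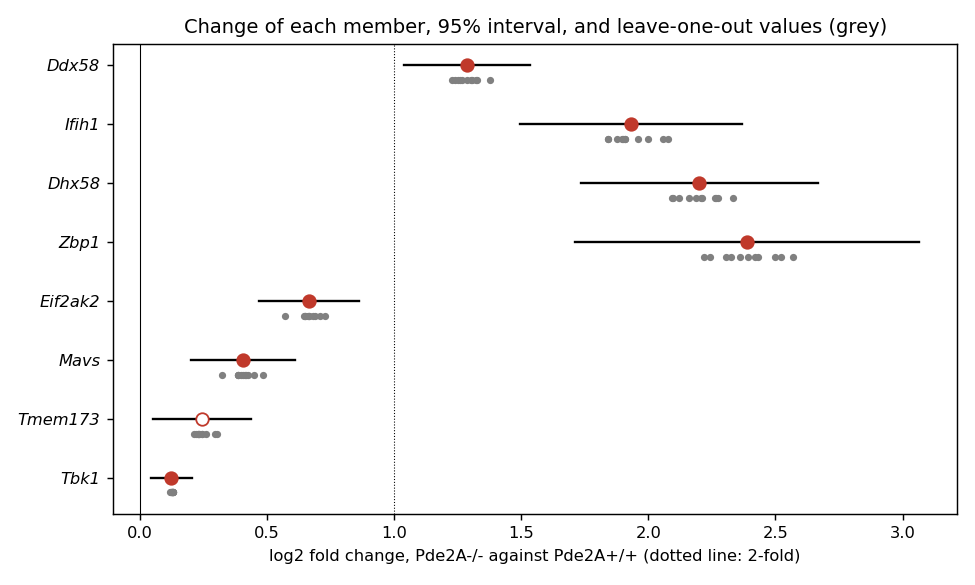
Log2 fold change of each member in *Pde2A*-/- against *Pde2A*+/+ hearts (points, filled where the adjusted p passed) with its 95% interval (lines), and the 11 values with 1 heart left out (grey). The intervals of *Ddx58*, *Ifih1*, *Dhx58* and *Zbp1* lie wholly above the 2-fold line, those of the other 4 members wholly below it, and leaving out 1 heart moved *Zbp1* the most, from 2.22 to 2.57.

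The knockout hearts were not equal. Replicates A and D were the lowest 2 of the 5 knockout hearts for *Ddx58*, *Ifih1*, *Dhx58*, *Zbp1* and *Eif2ak2*, and A was the lowest for 5 of the 8 members. Replicate B was the highest for 3 members and replicate 15 for another 3. Replicates A and D were also the lowest 2 for *Tmem173*. *Mavs* and *Tbk1* broke the order, since replicate D was the second highest heart for *Mavs* and replicate B the lowest for *Tbk1*. The range within the knockout hearts was wide for *Zbp1* and *Ifih1*, with coefficients of variation of 33.3% and 29.2%, and narrower for *Tmem173* at 9.10%. Leaving out replicate A and wild-type replicate 7 together, a choice made after the data were seen, gave log2 differences of 1.42 for *Ddx58*, 2.20 for *Ifih1*, 2.34 for *Dhx58* and 2.70 for *Zbp1*.

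**Figure D3:**
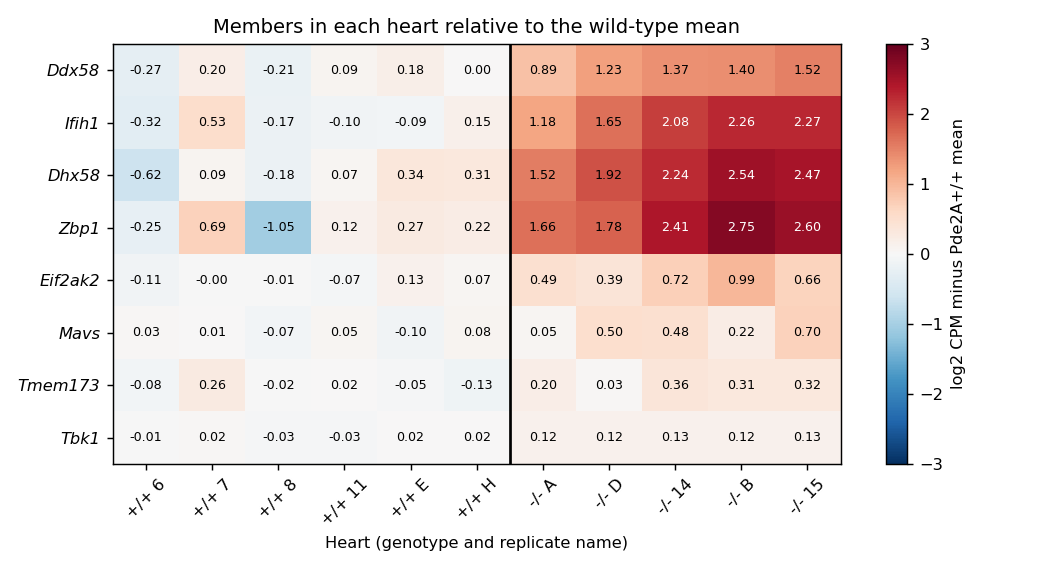
Log2 CPM of each member (vertical) in each heart (horizontal, genotype and replicate name) minus the wild-type mean, in colour and in figures. Knockout hearts A and D are paler than 14, B and 15 for the 3 helicases and *Zbp1*, and *Tbk1* differs by 0.12 or 0.13 in every knockout heart.

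Per length, the order of the transcripts changed between the genotypes. In wild-type hearts *Mavs*, at 8.97 ± 0.431 CPM per kilobase of exon (SD, n = 6), and *Tbk1*, at 8.34 ± 0.143, were the most abundant and overlapped each other. *Eif2ak2* followed at 5.92 ± 0.359, then *Tmem173* at 3.03 ± 0.306 and *Ddx58* at 2.15 ± 0.289. *Ifih1* at 0.441 ± 0.101 and *Dhx58* at 0.299 ± 0.0710 overlapped, and *Zbp1* came last at 0.0827 ± 0.0347.
In knockout hearts *Mavs*, at 11.9 ± 2.06 CPM per kilobase (SD, n = 5), had the highest mean. *Eif2ak2*, at 9.38 ± 1.53, overlapped both *Mavs* and *Tbk1*, at 9.09 ± 0.0420, while every knockout value of *Mavs* lay above every one of *Tbk1*. *Ddx58*, at 5.25 ± 0.828, stood above *Tmem173*, at 3.59 ± 0.327. *Ifih1*, at 1.68 ± 0.492, again overlapped *Dhx58*, at 1.38 ± 0.377, and *Zbp1* was again last at 0.437 ± 0.145.

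Ratios taken within a heart do not depend on scaling between libraries, and 7 were compared to ask whether members moved by unequal amounts. Helicase to adaptor ratios were higher in knockout hearts for all 3 helicases. The log2 ratio of *Ddx58* to *Mavs* was -0.10 ± 0.17 (SD, n = 5) in knockout and -0.99 ± 0.21 (SD, n = 6) in wild-type hearts. The difference of 0.89 reached the smallest p that an exact permutation test over these hearts can give, 0.00216 (two-sided), or 0.00303 after Benjamini-Hochberg adjustment over the 7 ratios. *Ifih1* to *Mavs* and *Dhx58* to *Mavs* differed by 1.51 and 1.81 with the same exact p.

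Among the helicases, *Dhx58* rose more than *Ddx58*. Their log2 ratio was -3.06 ± 0.21 in knockout and -3.98 ± 0.25 in wild-type hearts, with no overlap between the genotypes (exact permutation p = 0.00216, adjusted 0.00303). The difference of 0.91 fell to 0.49 when 0.5 CPM was added to every value. The ratio of *Ifih1* to *Ddx58* was also higher, by 0.62 on the log2 scale, with 4 of 5 knockout hearts above every wild type (exact permutation p = 0.00649, adjusted 0.00758). Knockout replicate A overlapped wild-type replicate 7 alone, and without replicate 7 the difference was 0.69 (exact permutation, adjusted p = 0.00926). *Zbp1* to *Tbk1* differed by 2.34, and by 1.22 with 0.5 CPM added. *Tmem173* to *Tbk1* differed by 0.12 and did not pass (exact permutation p = 0.165), and no knockout heart was above every wild type. Without wild-type replicate 7 that difference was 0.17 with an adjusted p of 0.0476.

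**Figure D4:**
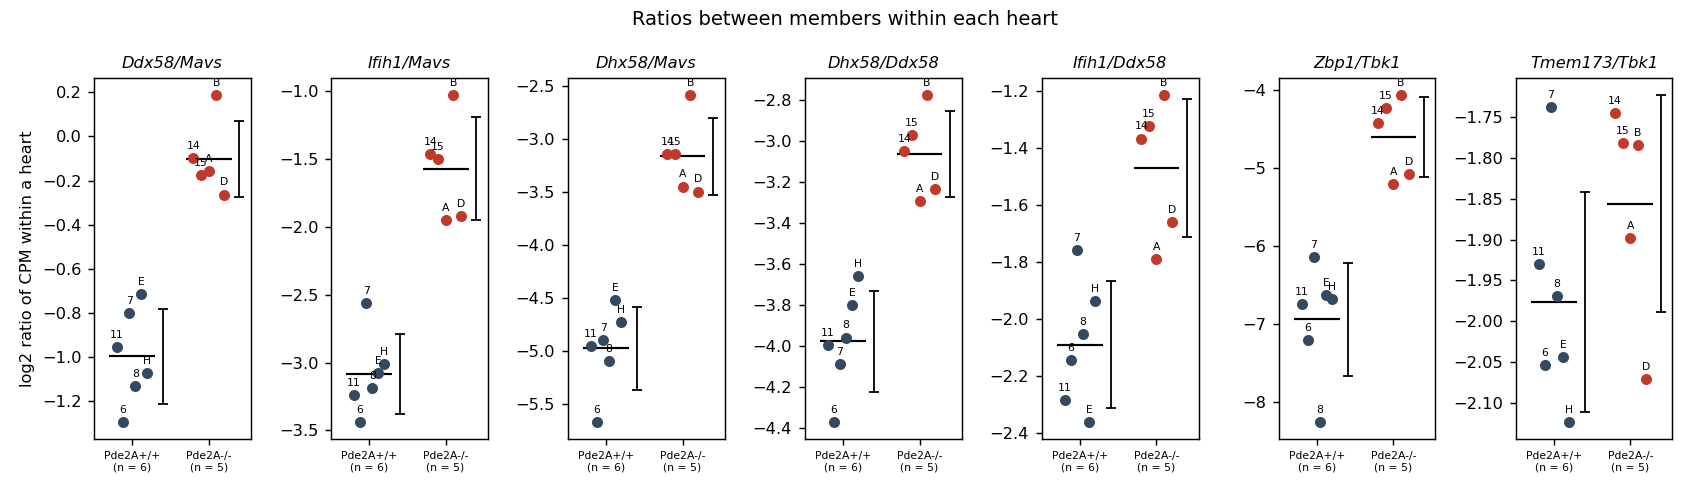
Log2 ratio of the CPM of 2 members within each heart, by genotype, 1 point for each heart with its replicate name, line for the mean and bar for the SD (n = 6 wild-type, n = 5 knockout), with a separate axis range in each panel. In the plot 5 of the 7 ratios do not overlap between the genotypes, *Ifih1* to *Ddx58* overlaps through knockout replicate A and wild-type replicate 7, and *Tmem173* to *Tbk1* overlaps widely.

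Around the helicases, 4 of 22 regulators of RIG-I-like receptors were higher, 1 was lower and 17 did not pass, with a median log2 difference of -0.01. *Trim25*, a ubiquitin ligase that activates RIG-I, rose from 52.3 ± 2.67 to 104 ± 17.9 CPM, a log2 difference of 0.995 (adjusted p = 2.20e-05). *Zc3hav1*, the zinc-finger antiviral protein, differed by 1.03 (adjusted p = 1.38e-05) and the helicase *Ddx60* by 0.96 (adjusted p = 7.29e-04). *Rnf135*, another RIG-I ligase, had 8.53 ± 0.468 CPM in knockout and 8.71 ± 0.849 CPM in wild-type hearts. *Trim14*, higher by 1.16, and *Ppp1ca*, lower by a log2 difference of -0.16, were named after their values were seen, and *Ppp1ca* passed in 3 of 11 fits without 1 heart.

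Below the adaptors, 4 of 21 genes were higher, 1 was lower and 16 did not pass, with a median of 0.03. *Irf7*, the interferon-induced relative of IRF3, had 16.6 ± 6.55 CPM in knockout and 1.64 ± 0.430 CPM in wild-type hearts, a log2 difference of 3.34 (SE 0.30, adjusted p = 1.45e-05). *Irf3*, the direct substrate of TBK1, differed by -0.20 (adjusted p = 0.0591), and *Ikbke*, the kinase most like TBK1, by 0.15 (adjusted p = 0.337). *Tnfaip3*, the ubiquitin-editing inhibitor A20, differed by 1.21 (adjusted p = 0.00389) and *Optn*, a ubiquitin-binding partner of TBK1, by 0.64 (adjusted p = 0.00832). *Tbkbp1*, higher by 0.25, and *Chuk*, lower at -0.18, were named after their values were seen, and *Chuk* passed in 3 of 11 fits without 1 heart.

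For DNA sensing, 5 of 19 genes were higher, 1 was lower and 13 did not pass, with a median of 0.07. The sensor upstream of STING, *Mb21d1* (cGAS), had 3.44 ± 0.268 CPM in knockout and 2.91 ± 0.538 CPM in wild-type hearts and did not pass (log2 difference 0.24, adjusted p = 0.268). *Aim2*, the inflammasome DNA sensor, differed by 0.07 (adjusted p = 0.739). The members of the Ifi200 family *Ifi204*, *Ifi203* and *Mndal* were higher by 1.80, 1.39 and 1.15, with adjusted p-values of 2.06e-05, 0.00131 and 0.00745. These are closely similar neighbouring genes, and reads common to them would map to several places, so how the increase divides among them is uncertain. *Casp1*, higher by 0.98, *Trim56*, higher by 0.27, and *Dhx9*, lower at -0.32, were named after their values were seen. With 1 heart left out, *Trim56* passed in 3 of 11 fits and *Dhx9* in 2.

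Of 12 tested genes that remove or mask the cell's own nucleic acids, 3 were higher, 1 was lower and 8 did not pass, with a median of 0.06. *Adar*, which edits double-stranded RNA and so keeps it from MDA5, rose from 39.6 ± 1.03 to 62.4 ± 6.45 CPM, a log2 difference of 0.66 (adjusted p = 2.08e-05). The lysosomal nucleases *Dnase2a* and *Pld3* were higher by 0.60 and 0.39 (adjusted p = 0.00397 and 0.00247). *Samhd1*, a nucleotide hydrolase, differed by 0.07 (adjusted p = 0.497). *Trex1*, the cytosolic DNA exonuclease, had 0 counts in every heart, and 100% of its exon bases lie within *Atrip* on the same strand, where reads on both genes are counted on neither. *Rnaseh2b*, lower at -0.30 and past the test in 2 of 11 fits without 1 heart, was named after its value was seen.

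In all, 3 of the 7 partners of ZBP1 were higher and 4 did not pass, with a median of 0.13. *Mlkl*, which executes necroptosis, had 6.23 ± 1.64 CPM in knockout and 2.95 ± 0.516 CPM in wild-type hearts (log2 difference 1.08, adjusted p = 0.00217). *Ripk3*, the kinase that ZBP1 binds, differed by 0.38 (adjusted p = 0.0124) and *Casp6* by 0.23 (adjusted p = 0.0484). Of the 11 fits that left out 1 heart, *Ripk3* and *Mlkl* passed in all 11 and *Casp6* in 2. *Ripk1* and *Casp8*, which restrain necroptosis, differed by 0.12 and -0.13 and did not pass (adjusted p = 0.217 and 0.376).

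Among 12 eIF2alpha kinases and partners of PKR, 3 were higher, 2 were lower and 7 did not pass, with a median of 0.11. *Eif2ak1*, the heme-regulated kinase, differed by 0.38 (adjusted p = 6.37e-04), while *Eif2ak3* (PERK) and *Eif2ak4* (GCN2) differed by 0.14 and 0.00 and did not pass (adjusted p = 0.150 and 0.995). *Prkra*, the protein activator of PKR, differed by 0.12 (adjusted p = 0.0833). *Ppp1r15a*, which brings a phosphatase to eIF2alpha, rose from 27.5 ± 2.21 to 52.2 ± 6.65 CPM (log2 difference 0.92, adjusted p = 1.64e-05). *Ddit3*, a transcription factor of the same stress response, differed by 0.96 (adjusted p = 0.0147). *Tarbp2*, an inhibitor of PKR, and *Dnajc3*, lower at -0.32 and -0.31, were named after their values were seen, and passed in 6 and 4 of 11 fits without 1 heart.

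The interferons themselves were hardly read. Of 21 type I, II and III interferon genes, 18 had 0 counts in every heart, *Ifnb1* among them, which allows up to 3 counts, or 0.0708 to 0.0833 CPM, in a heart. The other 3 reached at most 10 counts over all hearts, and *Ifnz*, the single one tested, did not pass (adjusted p = 0.401). A difference in interferon transcripts was not detectable at this depth. Of 14 interferon receptor and signalling genes, 7 were higher, none was lower and 7 did not pass, with a median of 0.21. *Irf9* and *Stat2*, subunits of the factor that binds the response element shown above, were higher by 1.66 and 0.64 (adjusted p = 5.66e-06 and 1.64e-04). *Ifnar2* was higher by 0.33 (adjusted p = 0.0162), whereas *Ifnar1* differed by 0.12 (adjusted p = 0.142).

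**Figure D5:**
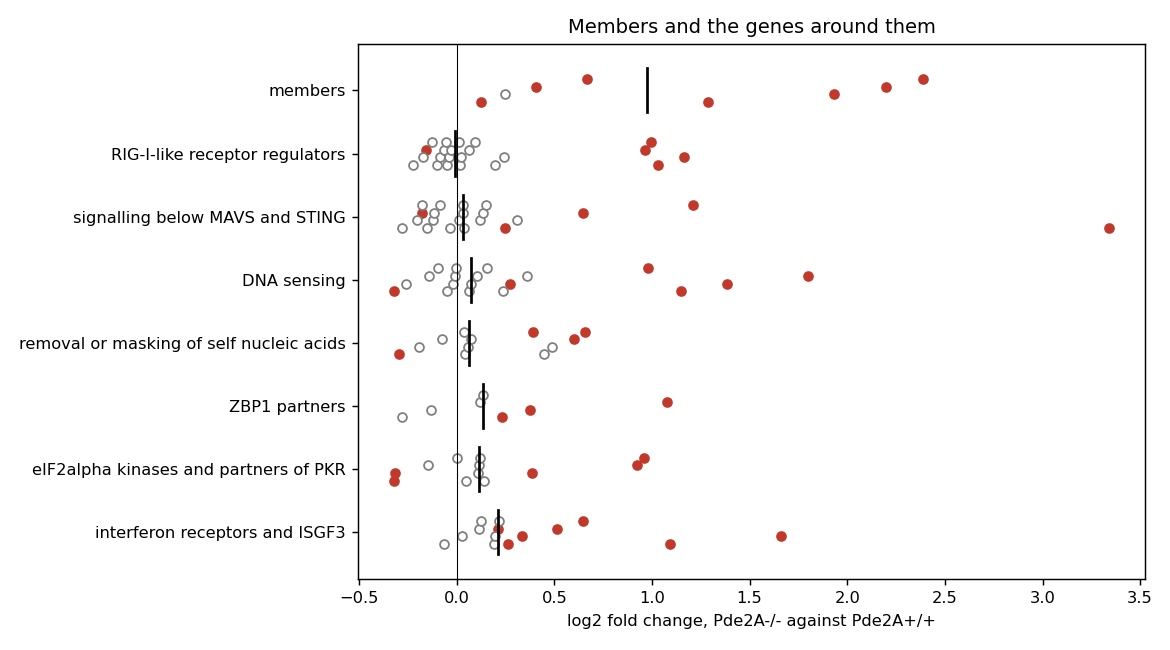
Log2 fold change of the 8 members and of the genes tested in each of 7 neighbouring lists, 1 point for each gene, red where the adjusted p passed and open where it did not, with a black line at the list's median. The members' median is 0.98 and the medians of the 7 lists lie between -0.01 and 0.21.

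Markers of other cell types that a heart can hold were read in the same libraries. The summed level of 20 macrophage markers ran from 304 to 393 CPM in knockout and from 159 to 238 CPM in wild-type hearts, a ratio of means of 1.72, with 16 of 20 genes higher past the test. Within the knockout hearts, replicates A and B had the lowest macrophage sums, 304 and 338 CPM. Replicate A was the lowest and B among the highest for *Ddx58*, *Ifih1*, *Dhx58* and *Zbp1*, and B was the highest for *Eif2ak2*. For *Mavs*, A and B were the lowest 2, and for *Tbk1* B was the lowest. Sums of 9 granulocyte markers ran from 22.7 to 63.4 CPM against 0.784 to 9.83 CPM. In this list 7 of 8 tested genes were higher, and *Ly6g* had no more than 3 counts in every heart. Among knockout hearts the granulocyte sum was lowest in replicate 14 and highest in D. Plasmacytoid dendritic cell markers summed to 206 to 265 CPM against 167 to 206 CPM, with 2 of 6 tested genes higher and 1 lower. Their sum was lowest in A and highest in 15 among knockout hearts. The median log2 difference was -0.69, and ran from -0.84 to 0.05 with 1 heart left out. *Spib*, at -4.05, had 197 of its 220 counts in wild-type replicate 7, the heart with lymphocyte transcripts, so its difference rests on that heart. Most of the plasmacytoid sum was *Tcf4*, which many cells express, at 169 ± 7.27 CPM in knockout and 163 ± 14.2 CPM in wild-type hearts. *Bst2*, itself an interferon-stimulated gene, was 49.3 ± 14.8 against 11.8 ± 1.08 CPM. *Irf8*, the other gene of this list that passed as higher, had a log2 difference of 0.56 (adjusted p = 0.016), with overlap between the genotypes. The more specific *Siglech* passed as lower, at 0.0566 ± 0.0329 against 0.157 ± 0.0562 CPM, also with overlap. *Siglech* had at most 10 counts in a heart and 48 over all hearts. Its knockout mean lay below the 0.0708 to 0.0833 CPM that 3 counts make, so its direction is weakly based. Endothelial markers summed to 1469 to 1583 CPM against 1184 to 1406 CPM, with 4 of 10 higher and 1 lower. Knockout replicates B and 15 had the highest endothelial sums, 1583 and 1551 CPM, and D the lowest.
Erythroid sums overlapped, from 2625 to 4571 CPM against 2101 to 8681 CPM. In knockout hearts the erythroid sum was lowest in A and highest in B and 15, at 4571 and 4461 CPM. Most of that sum was 2 globin genes that did not pass. *Hba-a1* had 1214 ± 272 against 1728 ± 822 CPM (adjusted p = 0.253), and *Hbb-bs* 1931 ± 413 against 2747 ± 1485 CPM (0.308). By contrast, 8 of 11 erythroid genes were at least 2-fold higher, without overlap, and the median log2 difference of the list was 2.81. Cardiomyocyte sums overlapped as well, from 37968 to 43829 CPM against 36513 to 50031 CPM, with 1 of 12 lower. Replicates A and D had the lowest knockout sums of these markers, 37968 and 38183 CPM, and 15 the highest. Lymphocyte and NK cell markers ran from 0.731 to 1.28 CPM in knockout hearts, with *Ms4a1* at no more than 3 counts in every heart. The part of these cell types in the members' differences was not tested.

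The genes whose profiles over the 11 hearts lay nearest to each member were found among 14024 genes by the root mean square difference of log2 CPM, after subtracting each gene's wild-type mean. For *Ddx58* they were *Sptb* (0.135) and *Gm20559* (0.141), for *Ifih1* they were *Ifi204* (0.173) and *Irgm1* (0.175), and for *Dhx58* they were *Slc22a4* (0.168) and *Sp100* (0.209). *Zbp1* lay nearest to *Adra2b* (0.286) and *Slc22a4* (0.297), and *Eif2ak2* to *Arrb1* (0.0775) and *Adar* (0.0817). *Mavs* lay nearest to *Wdr59* (0.0391) and *Anxa4* (0.0435), *Tmem173* to *Samd14* (0.0801) and *Stil* (0.0894), and *Tbk1* to *Fam120a* (0.0223) and *Tmx1* (0.0259). Between members, *Ifih1* and *Dhx58* lay 0.279 apart, and *Tmem173* and *Tbk1* 0.145. All hearts contribute to each distance and small differences give small distances, so these values rank likeness and nothing more.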

How the data were processed

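Stranded poly(A) libraries of 11 embryonic hearts were sequenced single-end. The authors mapped the reads with STAR to GRCm38 (mm10), the STAR version being not given in the sources used here, and deposited raw counts per gene, without normalization or filter. Rows that name no gene, 19.6% to 22.4% of the reads, were left out. The sense column was used, in which a read on more than 1 gene is not counted. Of 55487 gene identifiers, 55227 matched GENCODE M21.

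Genotypes were read from the sample titles. No batch or litter is stated. The p-values weigh the genotype difference against the spread between single hearts, taken as independent, and cannot account for litters that hearts may share. Genes that reached 10 counts in all hearts together were fitted in edgeR 4.0.16 (R 4.3.3, limma 3.58.1, DESeq2 1.42.0) with TMM scaling. Its quasi-likelihood test was adjusted after Benjamini and Hochberg over 24177 genes. A gene passed at an adjusted p under 0.05 and was called when also at least 2-fold different. CPM are TMM-scaled, the log2 values plotted by heart use a prior count of 2, and CPM per kilobase use the union of exons. Depth and ratios were compared by exact permutation tests. Tested on simulated data of 23742 genes, the fit recovered 200 of 200 genes with a log2 change of 2 and made 0 wrong calls. The simulation gave every gene the same variation between hearts beyond counting, and placed changes only in well-read genes. It therefore says nothing on smaller changes or scarce transcripts.

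The members and lists were chosen with earlier results of these data known, and the motif with 1 base of spacing after the promoters had been read. Named were the members, 24 genes fixed by role, the 3 smallest adjusted p in each list and the 2 nearest profiles of each member. Values of 2 list genes are not reported here, although list counts and sums include both. Alternatives were DESeq2, its size factors, limma-voom, 2 other filters on counts, the unstranded counts, removal of the globin genes, a covariate for replicates named by letter or by number (a difference of no stated meaning), other fold limits, a pseudocount of 0.5 CPM in the ratios and each heart left out. Python 3.11.15 with pandas 2.3.3, numpy 2.4.6 and matplotlib 3.10.9 made the tables and plots.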

Additional observations from a re-analysis of the deposited data

Results flagged for a closer look

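In *Pde2A*+/+ hearts, the *Tmem173* level of replicate 7, 9.93 CPM, lay apart from the other 5, which ran from 7.58 to 8.37 CPM. The gap exceeded the limit of Dixon's test, which chance passes in about 1 of 20 groups, and 1 of 30 groups examined did. The same heart had lymphocyte and NK cell markers at 84.4 CPM, and their part in its *Tmem173* level was not tested.

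Reads on the strand opposite to *Ddx58* were used in no comparison but the alternative with unstranded counts. They were more frequent in every *Pde2A*-/- heart than in any *Pde2A*+/+ heart. Their means were 0.330 ± 0.126 CPM (SD, n = 5) and 0.125 ± 0.0626 CPM (SD, n = 6). They numbered 9 to 22 counts in knockout and 2 to 8 counts in wild-type hearts and were 0.863% of the reads at the locus. At the other 7 members this share lay between 0.728% and 1.34%. Sense reads of *Ddx58* were higher in the same hearts, with means of 37.0 ± 5.84 and 15.2 ± 2.03 CPM. Whether the opposite-strand reads changed beyond the sense reads was not tested.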

How the results depend on the processing

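The log2 differences of *Ddx58*, *Ifih1*, *Dhx58*, *Zbp1*, *Eif2ak2* and *Mavs* kept their direction and passed the test in all 20 alternatives run for each. *Tbk1*, at 0.13, no longer passed without a filter on counts (0.13, adjusted p = 0.0675), with naming style as a covariate (0.12, 0.0508), with limma-voom (0.12, 0.0549) and in 9 of the 11 fits that left out 1 heart (0.12 to 0.13). *Tmem173*, at 0.25, passed with DESeq2 (0.25, adjusted p = 0.0307), with naming style as a covariate (0.28, 0.0406) and without *Pde2A*+/+ replicate 7, and ran from 0.21 to 0.30 over the fits without 1 heart. Without *Pde2A*-/- replicate A and *Pde2A*+/+ replicate 7, chosen after the data were seen, *Tmem173* passed at 0.32 (0.0261) and *Tbk1* did not at 0.13 (0.0702). The log2 ratio of *Tmem173* to *Tbk1* differed by 0.0908 to 0.174 with 1 heart left out, and passed only without *Pde2A*+/+ replicate 7. The cause of these changes was not tested.

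Members called stayed at 4 in all alternatives but the fold limits, with 5 at 1.5-fold and 7 on the adjusted p alone. Over all genes, 535 were called higher, against 981 at 1.5-fold and 2160 on the adjusted p alone, and from 396 to 675 with 1 heart left out. The 90 called lower were 57 with DESeq2, 37 with filterByExpr, 215 at 1.5-fold and 1372 on the adjusted p alone, and from 35 (without *Pde2A*-/- replicate 15) to 137 (without replicate A). In the pathway lists, genes passing as higher stayed within 1.5 times their number, whereas genes passing as lower, few in each list, varied from 0 to 5. No member's fold change or ratio changed direction in the alternatives run, but the median of the RIG-I-like receptor regulators, -0.01, ran from -0.05 to 0.01 with 1 heart left out. Among the members *Zbp1*, with 4 to 18 counts in wild-type hearts, was the least precisely read. No paired analysis was possible because the genotypes share no replicate names.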
